A study of Mus musculus with 16 samples.

Results

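Fkbp5 and the chaperones that work on steroid receptors were followed in mouse fat after an androgen injection, as 7 probe sets of 5 genes among 12422 probe sets that are not array controls. The genes were chosen by name (Fkbp5, Fkbp4, Hsp90aa1, Hsp90ab1, Stip1 and Nr3c1), and every probe set annotated with exactly 1 of these symbols was taken. Hsp90ab1 had no such probe set and was not analysed here. Fkbp4 and Hsp90aa1 had 2 probe sets each, and Fkbp5, Stip1 and Nr3c1 had 1 each. All arrays came from retroperitoneal fat of gonadectomised mice, which had lost their own gonadal androgen source. Dihydrotestosterone (DHT, the potent androgen formed from testosterone) was given under the skin at 0.1 mg, and fat was taken 1, 3, 6, 12, 18 or 24 h later, with 1 array for each time and sex. Gonadectomised mice given vehicle supplied 2 arrays of each sex, which made 12 DHT and 4 vehicle arrays, 8 from females and 8 from males. All 4 vehicle arrays are labelled 24 h, and the labels do not say what this counts. No vehicle array carries another time, so at 1 to 18 h an effect of DHT cannot be told apart from one of time itself. The labels do not say how many mice stand behind an array, and tissue of a group may have been pooled.

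Steroid hormone receptors are held ready for hormone by a chaperone cycle. The Hsp70 system receives the newly made receptor, Stip1 (also called Hop) bridges Hsp70 and Hsp90 so that the receptor can be handed over, and Hsp90 then carries it in its mature complex together with an immunophilin. Fkbp5 (FKBP51) and Fkbp4 (FKBP52) are immunophilins that compete for the same docking site on Hsp90. Fkbp4 favours hormone binding and movement into the nucleus. Fkbp5 lowers hormone binding by the glucocorticoid receptor, and its gene is a widely used marker of steroid hormone action.

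One vehicle array stood apart and touched several results. On male vehicle replicate 2 the summed signal of 18 skeletal muscle markers was 384119, against 22145.8 to 73403.3 on the DHT arrays and 32216.6 to 73771.5 on the other vehicle arrays, and 17 of the 18 had their highest signal there. The 11 adipocyte markers measured summed to 21914.9 on that array, against 106002 to 185337 on the DHT arrays and 102815 to 160094 on the other vehicle arrays. Of the 11, 10 had their lowest signal there, Fabp4 only slightly (526 against at least 560 on DHT arrays), and 1, Slc2a4, its highest (5422). The 15 macrophage markers measured summed to 7813.52 there, against 27640.3 to 50550.2 on DHT arrays and 32899.4 to 46774.5 on the other vehicle arrays, and 14 were lowest there. In whole tissue, fewer cells of a type and less RNA per cell cannot be told apart. The female array at 12 h had a summed signal of 99488.4 for 7 exocrine pancreas genes, against at most 8766.32 on any vehicle array. Fitted values of the members are therefore given for all 16 arrays and for the 15 arrays without male vehicle replicate 2. That array was left out with earlier results of these data known. It had the highest Fkbp5 signal of the 4 vehicle arrays (907), so the fit without it is not an independent check of the Fkbp5 rise.

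Fkbp5 was higher in fat after DHT, and its signal climbed to a maximum at 12 h in both sexes. The gene lies on the minus strand of chr17:28398753-28486149 (RefSeq annotation of GRCm38.p6) and was measured by probe set 94297_at. Its promoter, 250 bases before to 50 after the start, is shown because this is the member whose signal moved with DHT. It covers chr17:28486100-28486399 on the minus strand and has a GC content of 70.67%.
Fkbp5 promoter: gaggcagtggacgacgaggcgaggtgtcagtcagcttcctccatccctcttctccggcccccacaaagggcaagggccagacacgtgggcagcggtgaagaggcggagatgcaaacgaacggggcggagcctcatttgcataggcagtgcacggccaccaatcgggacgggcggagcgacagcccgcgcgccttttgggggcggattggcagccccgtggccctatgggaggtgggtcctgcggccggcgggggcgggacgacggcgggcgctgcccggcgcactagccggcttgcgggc
Only these 300 bases were searched, not the rest of the gene (87397 bases) or sequence farther away. No letters are in capitals because none of 3 searched motifs was present on either strand. These were the full hormone response element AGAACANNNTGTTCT, found in 0.00913% of 32851 RefSeq mouse promoters of this length, its half-site AGAACA, found in 19% of them, and the heat shock element pair GAANNTTC or TTCNNGAA, found in 15.1%.

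In females Fkbp5 signals were 515 at 1 h, 1240.2 at 3 h, 2454 at 6 h, 2648 at 12 h, 1574 at 18 h and 1102 at 24 h, against 332 and 552 on the vehicle arrays. In males they were 829, 1493, 2318, 2755, 2096 and 1606 at the same times, against 714 and 907 on the vehicle arrays. Both 1 h signals lay between the vehicle signals of their own sex, while all 10 arrays from 3 to 24 h were above all 4 vehicle arrays. Of the 7453 probe sets bright enough to be tested, 12 (0.161%) separated those arrays in that way, Fkbp5 among them. The decline after 12 h was incomplete. At 24 h the signal was still 2.49 times the vehicle mean in females and 1.98 times in males, which was 29.9% and 40.9% of the greatest rise.

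**Figure D1:**
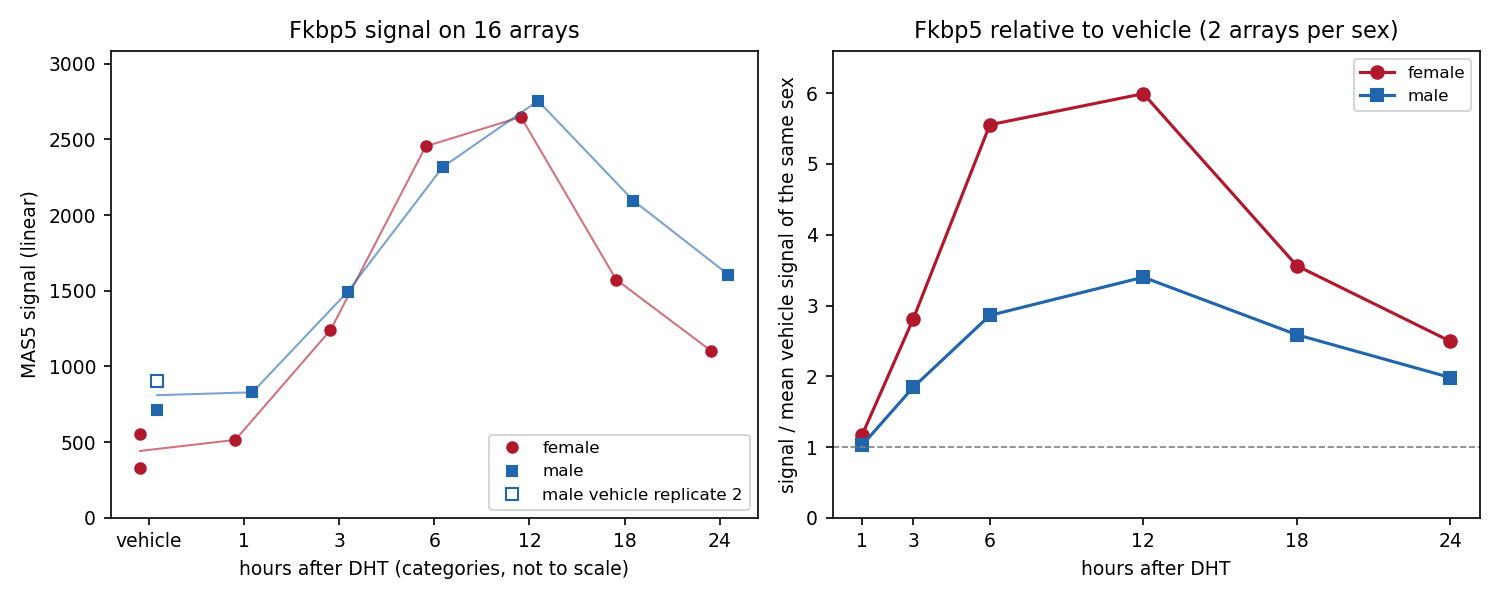
Fkbp5 (94297_at) after DHT. The left panel gives the linear MAS5 signal of every array, with vehicle arrays at the left end and lines from the vehicle mean through the 6 times, and the right panel divides each DHT signal by the mean of the 2 vehicle arrays of its sex. Signals peaked at 12 h, at 2648 in the female and 2755 in the male, and the open square marks male vehicle replicate 2.

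Averaged over the 6 times, Fkbp5 rose 2.60-fold after DHT, with a log2 change of 1.38 ± 0.18 (SE, 95% interval 0.99 to 1.77) and an adjusted p of 0.017 in limma. Signals averaged 1719 ± 733 on 12 DHT arrays and 626 ± 244 on 4 vehicle arrays (SD). The comparison called 3 probe sets of 7453 (0.0403%), all higher after DHT, and Fkbp5 was the only one of the 5 tested members among them. With 15 arrays the log2 change was 1.52 ± 0.16 with an adjusted p of 0.00295, and 4 probe sets (0.0537%) were called. The call was sensitive to single arrays. It passed for 5 of the 16 arrays left out in turn, with log2 changes of 1.17 to 1.52 and adjusted p of 0.00295 to 0.0874. It passed without female 1 h or 6 h, male 6 h or 12 h, or male vehicle replicate 2, and missed the threshold without any of the others.

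By time, the log2 change against vehicle (SE 0.27) was 0.15 at 1 h, 1.19 at 3 h, 1.99 at 6 h, 2.17 at 12 h, 1.60 at 18 h and 1.16 at 24 h. The rises at 6 h (3.98-fold, adjusted p = 0.0242 in limma) and 12 h (4.50-fold, adjusted p = 0.0313) passed, each among 3 called probe sets (0.0403%). The other times did not, with adjusted p of 0.97 at 1 h, 0.92 at 3 h, 0.234 at 18 h and 0.921 at 24 h. At 3 h limma called 1 probe set (0.0134%), which was not Fkbp5. With 15 arrays the rises were log2 2.13 at 6 h and 2.31 at 12 h (adjusted p = 0.00311 and 0.00161, among 4 and 3 called probe sets, 0.0537% and 0.0403%). There 18 h passed as well (1.74 ± 0.23, adjusted p = 0.0295), and 1, 3 and 24 h still did not (0.29, 1.33 and 1.30, adjusted p = 0.999, 0.252 and 0.134). A test over all 6 times together gave an adjusted p of 0.0551 with 16 arrays, where limma called 0 probe sets and 86 lay under 0.05 before adjustment. With 15 arrays it gave 0.00964, among 5 called (0.0671%). Of the 16 fits that each left out 1 array, the 6 h rise passed in 4, namely those without a 12 h array of either sex, female vehicle replicate 1 or male vehicle replicate 2. The 12 h rise passed in 10 and was lost without any of the 3, 12 or 24 h arrays of either sex. At 12 h the value without the female array that carried pancreas transcripts was 1.94, with an adjusted p of 0.642.

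Neighbouring times were not separated. Fkbp5 differed by log2 1.04 between 3 and 1 h, 0.80 between 6 and 3 h, 0.18 between 12 and 6 h, -0.57 between 18 and 12 h and -0.44 between 24 and 18 h (SE 0.31), with adjusted p of 0.998 to 1 in limma. With 15 arrays these differences were the same (SE 0.25) and still did not pass, with adjusted p of 0.572 between 24 and 18 h and 0.988 to 1 for the others. Late arrays (12, 18 and 24 h) had Fkbp5 signals of 1102 to 2755 with a median of 1851, and early arrays (1, 3 and 6 h) 515 to 2454 with a median of 1367. The late minus early difference was log2 0.53 ± 0.18 (adjusted p = 1, and 0.422 with 15 arrays).

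Fkbp5 signals of both sexes were highest at 12 h, but the share of the greatest rise differed at other times. It was 91.2% in the female and 77.5% in the male at 6 h, and 51.3% in the female and 66.1% in the male at 18 h, with 1 array behind each. Female vehicle signals of 332 and 552 were both below male vehicle signals of 714 and 907, and female signals were also below male ones at 1, 3, 12, 18 and 24 h but not at 6 h. Over all times the female minus male difference was log2 -0.45 ± 0.15, which missed the threshold (adjusted p = 0.124 with 16 arrays, and -0.38 ± 0.13 with 0.0731 for 15). Within females the DHT effect was log2 1.66 ± 0.23 (3.17-fold, adjusted p = 0.132), and within males 1.09 ± 0.23 (2.13-fold, adjusted p = 0.229). With 15 arrays the female effect passed (1.66 ± 0.20, adjusted p = 0.0237, among 3 probe sets called, 0.0403%) and the male one, with 1 vehicle array left, did not (1.26 ± 0.27, 0.616). A difference between the sexes in the response was not shown. The female minus male response was log2 0.58 ± 0.33 (95% interval -0.15 to 1.30, adjusted p = 0.611), and 0.41 ± 0.34 with 15 arrays (-0.34 to 1.16, 0.999).

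Among 6718 tested probe sets with a single gene symbol, Mt2, a metal-binding metallothionein, had the pattern most like that of Fkbp5. Likeness was the correlation of log2 signals over the arrays after each sex's mean was removed. It was 0.923 for Mt2 over 16 arrays and 0.969 over 15. Mt2 signals were 10009.8 and 7729 at 6 h and 6565 and 7629 at 12 h in the female and the male, against 987 to 1945 on vehicle arrays. The next most alike over 16 arrays were Gas6, a ligand of the TAM receptor kinases (0.856), Inmt, an N-methyltransferase (0.832), both probe sets of Il1r2, a decoy receptor for interleukin 1 (0.799 and 0.788), and Cdkn1a, the cell cycle inhibitor p21 (0.778). Over 15 arrays they were Pnp, a purine salvage enzyme (0.882), Mt1, another metallothionein (0.867), Gas6 (0.859), Cdkn1a (0.852) and Alas1, which starts haem synthesis (0.844). Mt2, Gas6 and Cdkn1a were in both groups of 6. The other members were far less like Fkbp5. Over 16 arrays Hsp90aa1 stood at 0.304, the Fkbp4 probe sets at -0.43 and 0.118 and Stip1 at -0.25, and over 15 arrays at 0.256, -0.391, 0.323 and -0.153. These correlations share the arrays and the times of the series and carry no test.

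Fkbp4, the immunophilin that supports receptor activity, did not change detectably with DHT on either of its probe sets. The gene lies on the minus strand of chr6:128430103-128438656 (GRCm38.p6). Its promoter at chr6:128438607-128438906 (GC content 65.33%) is shown beside that of Fkbp5 because it was the only one of the 3 member promoters on hand to hold a searched motif, and Stip1 was the third. The capitals mark a heat shock element pair at bases -151 to -144 from the start.
Fkbp4 promoter: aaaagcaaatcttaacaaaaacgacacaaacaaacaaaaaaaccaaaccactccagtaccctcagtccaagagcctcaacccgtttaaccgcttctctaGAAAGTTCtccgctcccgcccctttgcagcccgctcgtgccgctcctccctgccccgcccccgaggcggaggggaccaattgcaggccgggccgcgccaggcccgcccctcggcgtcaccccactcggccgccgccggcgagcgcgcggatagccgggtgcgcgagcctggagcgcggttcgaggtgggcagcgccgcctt

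The brighter Fkbp4 probe set, 92808_f_at, had signals of 1656 to 2665 with a median of 2209.8 on DHT arrays, against 1911, 2184, 2438 and 2766 on vehicle arrays. The suffix marks probes that can also match related sequences, so part of this signal may belong to another transcript. DHT and vehicle arrays overlapped throughout, with a log2 change of -0.09 ± 0.12 (95% interval -0.35 to 0.16, adjusted p = 0.752 in limma) and -0.05 ± 0.10 with 15 arrays. A rise of the size seen for Fkbp5 lies outside that interval. Signals by time ran from 2282, 2343 and 2100.05 at 1, 3 and 6 h to 1656, 1770.1 and 1899 at 12, 18 and 24 h in females. In males they ran from 2411, 2417 and 2665 at the early times to 2353, 2083 and 2137 at the late ones. Each sex therefore had its 3 lowest DHT signals at the 3 late times, an ordering whose share over all probe sets was not counted. The late minus early difference of log2 -0.26 ± 0.12 did not pass (adjusted p = 1, unadjusted 0.0461, and 0.582 adjusted with 15 arrays). With 16 arrays limma passed 0 probe sets in that comparison, although 195 were under 0.05 before adjustment, and 2 passed with 15 arrays (0.0268%). Antisense control probe sets, which should report background, had mean log2 signals of 7.12 to 8.0 on late arrays and 6.13 to 7.65 on early ones, and with that level as a covariate the difference was -0.22 (adjusted p = 0.976).

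The second Fkbp4 probe set, 92809_r_at, was dimmer and more variable. Female signals were 893 at 1 h, 822 at 3 h, 715 at 6 h, 779.7 at 12 h, 1046 at 18 h and 702 at 24 h, against 634 and 722 on vehicle arrays. Male signals were 422, 812, 769, 1004 (12 h), 555 and 698, against 799.7 and 1416 on vehicle arrays. All 6 female DHT arrays were above the female vehicle mean and all 6 male DHT arrays were below the male one. The highest signal of the series was on male vehicle replicate 2, which sets that male mean. The share of all probe sets that split the sexes in this way was not counted. The female minus male response was log2 0.89 ± 0.44 (95% interval -0.07 to 1.86, adjusted p = 0.611) and 0.49 ± 0.44 with 15 arrays (adjusted p = 0.999). The DHT effect over both sexes was -0.18 ± 0.25 (adjusted p = 0.774) and turned to 0.09 ± 0.21 with 15 arrays. Female minus male differences were log2 -0.26 ± 0.10 for 92808_f_at (adjusted p = 0.186, and 0.07 with 15 arrays) and 0.03 ± 0.21 for 92809_r_at (0.966, and 0.16 ± 0.17 with 0.591 for 15 arrays), so the probe sets of this gene did not give the same sign.

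**Figure D2:**
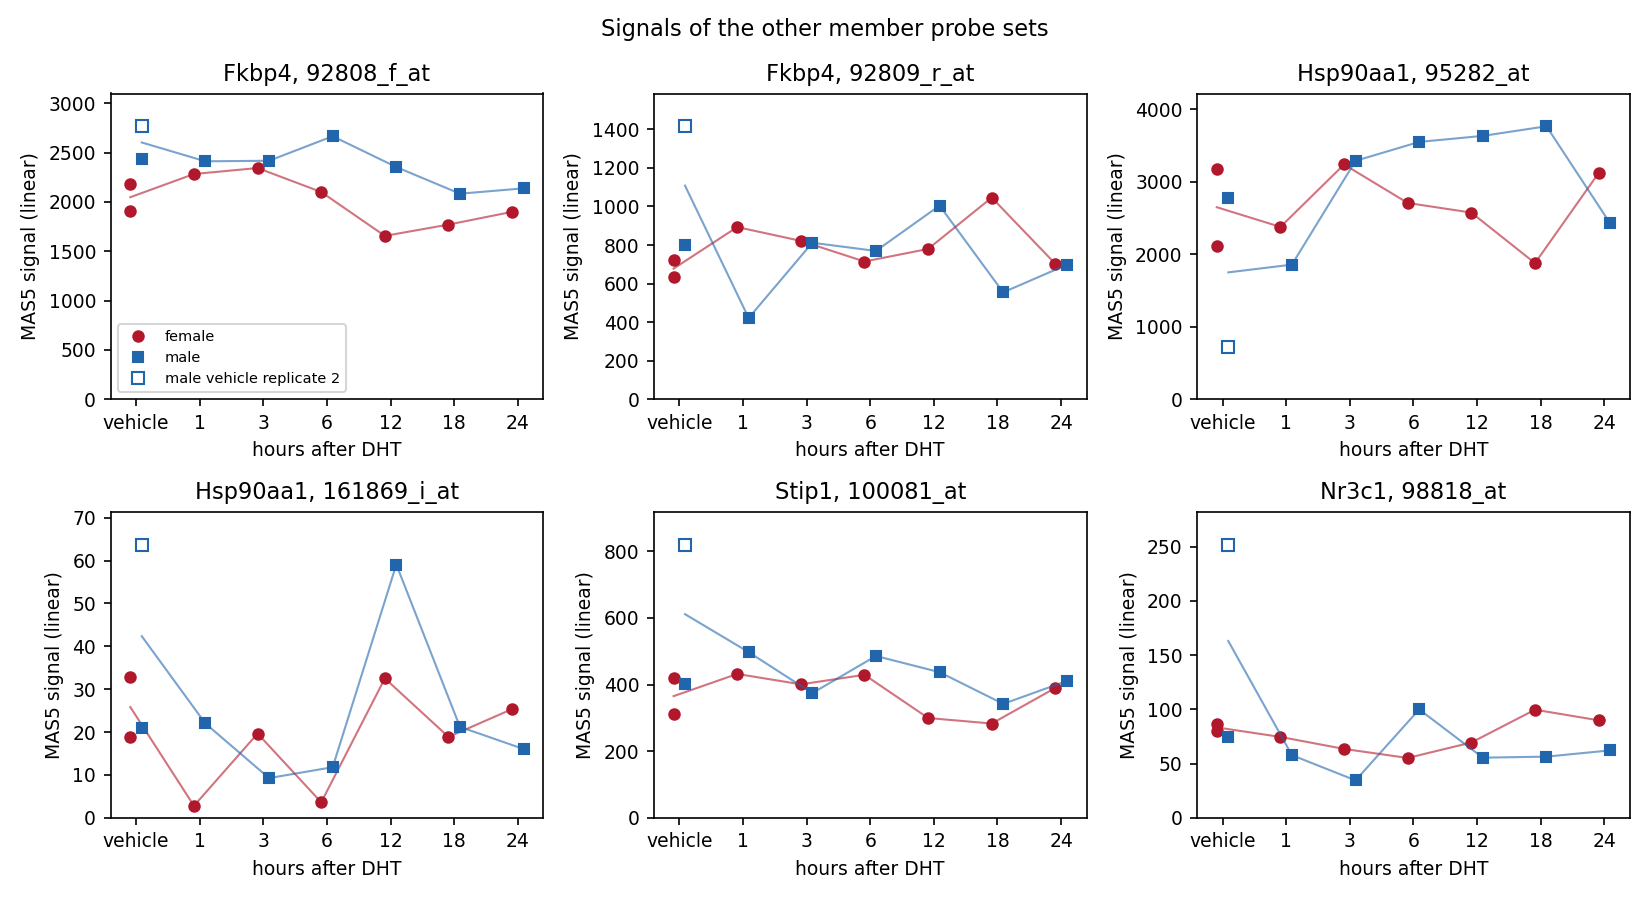
Linear MAS5 signals of the 6 other probe sets on every array, with vehicle arrays at the left end and lines from the vehicle mean through the 6 DHT times. The open square is male vehicle replicate 2, the lowest array for Hsp90aa1 95282_at (721) and the highest for Fkbp4, Stip1 (819.5) and Nr3c1 (252).

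Hsp90aa1, the inducible cytosolic Hsp90 that holds the receptor, did not change detectably with DHT, with or without the muscle-rich array. It lies on chr12:110691036-110696395 (GRCm38.p6), and its main probe set was 95282_at. Female signals were 2378 at 1 h, 3239 at 3 h, 2708 at 6 h, 2575 at 12 h, 1878 at 18 h and 3121 at 24 h, against 3181 and 2118 on vehicle arrays. Male signals were 1858, 3289.55, 3550.35, 3633, 3766 and 2428, against 2781 and 721 on vehicle arrays. The female DHT arrays were spread around their vehicle arrays. In males the 4 arrays from 3 to 18 h were above both vehicle arrays, a separation not counted over all probe sets. The log2 change was 0.54 ± 0.34 with 16 arrays (95% interval -0.20 to 1.27, adjusted p = 0.63 in limma) and 0.04 ± 0.19 with 15 (-0.38 to 0.47, adjusted p = 0.999). The male vehicle array at 721 is the muscle-rich one, and the other 15 arrays lay between 1858 and 3766. Late minus early was log2 0.02 ± 0.34 (adjusted p = 1), and 0.02 ± 0.17 with 15 arrays (0.981). Female minus male was 0.07 ± 0.29 (adjusted p = 0.936) and turned to -0.18 ± 0.16 without the muscle-rich array (0.505). The response in females minus that in males was -1.06 ± 0.62 (adjusted p = 0.611) and -0.10 ± 0.42 with 15 arrays.

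The second Hsp90aa1 probe set, 161869_i_at, whose suffix marks an incomplete set of probes, had signals of 2.80 to 59.1 on DHT arrays against 18.9 to 63.7 on vehicle arrays. It lay at the 12th percentile of all probe sets and was not tested. The brightness filter was the 40th percentile, a mean signal of 116.03, and 5 of the 7 member probe sets passed it. In a fit of all 12422 probe sets its DHT effect was log2 -0.49 ± 0.25, and -0.26 ± 0.25 with 15 arrays (adjusted p = 0.719 and 0.999). The pair of Hsp90aa1 probe sets thus differed in sign with 16 and with 15 arrays.

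Stip1, the adaptor that passes a receptor from Hsp70 to Hsp90, did not change detectably with DHT. Its gene is on the minus strand of chr19:7020696-7040026 (GRCm38.p6), and 100081_at measured it. Signals were 283 to 497 with a median of 406 on DHT arrays, against 311, 403, 419 and 819.5 on vehicle arrays. Apart from the muscle-rich array at 819.5, the vehicle signals lay inside the range of the DHT signals. The log2 change was -0.21 ± 0.19 (95% interval -0.61 to 0.20, adjusted p = 0.671 in limma) and turned to 0.04 ± 0.13 with 15 arrays (-0.26 to 0.33). In females the 1, 3 and 6 h signals of 432, 401 and 429 were followed by 299.6, 283 and 389.9 at 12, 18 and 24 h. In males 497, 374 and 486 were followed by 437, 342 and 411. The 18 h array was the lowest of its sex in both cases. Late minus early was log2 -0.28 ± 0.19 (adjusted p = 1, and 0.715 with 15 arrays), and female minus male -0.30 ± 0.16 (0.342, and -0.18 ± 0.11 with 0.308 for 15 arrays), neither past the threshold. With the antisense control level as covariate the late minus early value turned to 0.011.

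**Figure D3:**
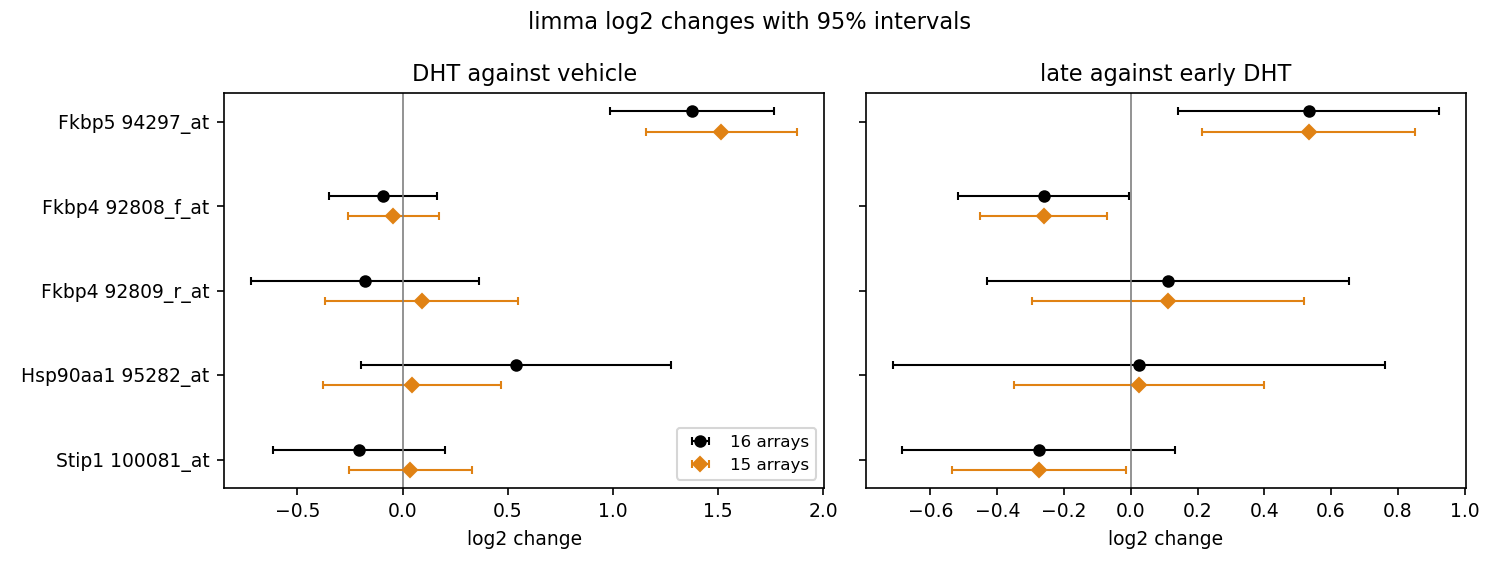
limma log2 changes of the 5 tested member probe sets with 95% intervals, for DHT minus vehicle (left) and late minus early DHT (right), with all 16 arrays (black) and without male vehicle replicate 2 (orange). For DHT minus vehicle the interval of Fkbp5 lies above 0 and those of the 4 other probe sets include 0. Unadjusted intervals that miss 0 on the right (Fkbp5, Fkbp4 92808_f_at and, with 15 arrays, Stip1) did not pass the adjusted test.

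Nr3c1, the glucocorticoid receptor and a client of these chaperones, was dim on these arrays. It lies on chr18:39410545-39519421 (GRCm38.p6), and 98818_at stood at the 32nd percentile of all probe sets, below the filter. Signals were 34.5 to 99.9 with a median of 62.8 on DHT arrays, against 74.3, 79.8, 86.9 and 252 on vehicle arrays. The value of 252 belongs to the muscle-rich array, and the signals of the other 15 arrays (34.5 to 99.9) were all below the level of the filter. In females 4 DHT arrays (1 to 12 h, 55.2 to 74.5) were below both vehicle arrays and those at 18 and 24 h (99.6 and 89.9) above both. In males 5 of the 6 DHT arrays were below both vehicle arrays and 0 above, with 56.4 at 18 h and 62.1 at 24 h. In the fit of all probe sets the DHT effect was log2 -0.60 ± 0.31 (adjusted p = 0.719 in limma) and -0.19 ± 0.24 with 15 arrays (0.999). Of the other steroid receptors listed, Esr1 and Esr2 (oestrogen receptors) and Pgr (progesterone receptor) were also below the filter. Esr1 signals were 27.7 to 74.4 on DHT arrays, with a median of 49.6. On vehicle arrays they were 49.8 and 92.7 in females and 163 and 153 in males, the last on the muscle-rich array. Esr1 was not tested.

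The wider chaperone machinery gave no called gene for DHT against vehicle, a comparison that called 3 of 7453 probe sets (0.0403%) with 16 arrays. At that share, 0 calls in a short list do not set its genes apart from the others. Of 21 Hsp90 cochaperones and relatives listed 12 were tested, and 0 passed in either direction in limma with 16 or 15 arrays. Their median log2 change was -0.02 (0.007 with 15 arrays), beside 0.04 (0.006) over all tested probe sets. The farthest from 0 were Ppid, a cyclophilin that docks on Hsp90 (-0.52 ± 0.31), and Hsp90b1, the Hsp90 of the endoplasmic reticulum (0.40 ± 0.20), which stood at -0.06 and 0.11 with 15 arrays. Of 25 Hsp70 and Hsp40 chaperones 21 were tested and 0 passed, with a median of -0.05 (0.07 with 15 arrays). The small heat shock protein Hspb8 (-0.43 ± 0.27) and the Hsp70 relative Hspa4l (0.40 ± 0.22) were farthest, and stood at -0.01 and 0.19 with 15 arrays. Before adjustment 388 probe sets were under 0.05 with 16 arrays and 234 with 15.

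The other immunophilins belong to the family of Fkbp5 and Fkbp4 and of the cyclophilins. Of 20 listed 11 were tested and 0 passed for DHT against vehicle, beside 0.0403% of all tested probe sets with 16 arrays. Their median log2 change was 0.14 (0.08 with 15 arrays), and Ppid stands in this list as well. Fkbp7, which resides in the endoplasmic reticulum, stood at 0.42 ± 0.20 and Fkbp3, a nuclear member, at -0.34 ± 0.28, and with 15 arrays at 0.13 and 0.11. Between the sexes 2 of the 11 passed, both higher in females, beside 5.58% of all tested probe sets passing in either direction and 4.59% higher in females. They were the cyclophilin Ppic (log2 0.56 ± 0.14, adjusted p = 0.0372) and Fkbp7 (0.70 ± 0.18, adjusted p = 0.0388). With 15 arrays 15.7% of all probe sets passed and 4 immunophilins did. Ppib joined Ppic and Fkbp7 as higher in females, and Fkbp8, an FKBP of the outer mitochondrial membrane, was lower (-0.34 ± 0.11, adjusted p = 0.0498).

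Fkbp5 was compared with 18 other genes listed as targets of steroid receptors, of which 17 were tested. Direct control of each gene by a receptor was not tested. The list was drawn up with results of these arrays known, so neither its direction nor its number of passing genes is independent evidence. In it 2 genes passed, both higher after DHT: Mt2 (log2 1.63 ± 0.20, adjusted p = 0.0145) and Gadd45g, a stress-inducible growth arrest gene (1.44 ± 0.15, adjusted p = 0.00621). Together with Fkbp5 they were the 3 probe sets called among all 7453 (0.0403%). With 15 arrays Errfi1, whose protein restrains EGF receptor signalling, passed as well (0.73 ± 0.11, adjusted p = 0.0431). The median of the list was 0.45 with 16 and with 15 arrays. Mt1 (1.59 ± 0.47), Cdkn1a (1.08 ± 0.18) and Angptl4, an inhibitor of lipoprotein lipase (1.07 ± 0.50), did not pass. Without the muscle-rich array Mt1 stood at 0.83, Cdkn1a at 0.87 and Angptl4 at 0.22.

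**Figure D4:**
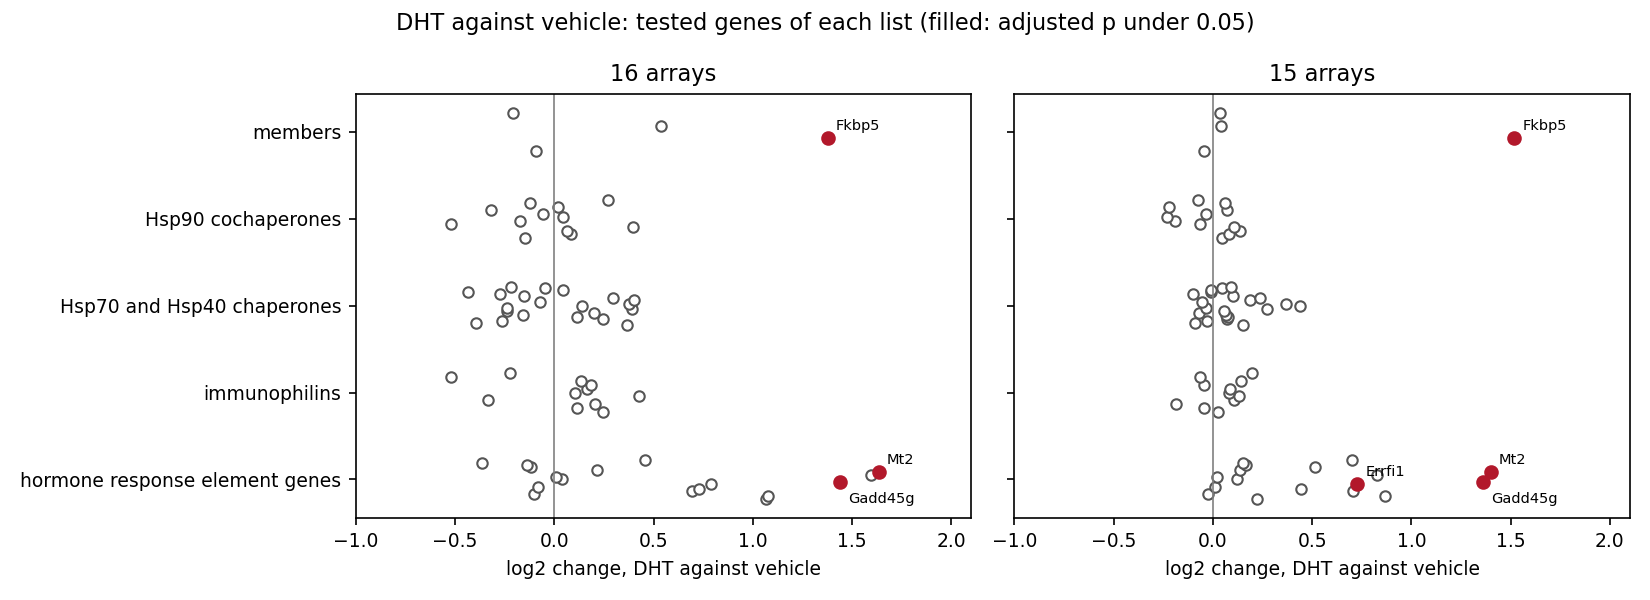
log2 change of DHT minus vehicle for the tested genes of 5 lists, 1 point for each gene, with 16 arrays (left) and 15 arrays (right). Filled points passed an adjusted p of 0.05 in limma. In the chaperone and immunophilin lists no point is filled, and Fkbp5 is the only filled one among the members. Over all tested probe sets 0.0403% passed with 16 arrays.

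Heat shock factor targets were set beside the members because Hsp90aa1, Stip1 and Fkbp4 are known to respond to that factor. Of 12 listed 10 were tested, and 0 passed for DHT against vehicle or for late against early arrays. Of all tested probe sets 0.0403% and 0% passed in these comparisons with 16 arrays. For late against early arrays 1 of the 10 was positive, with a median of log2 -0.25, beside 48.7% positive and a median of -0.01 over all tested probe sets, with 16 and with 15 arrays. Of 17 skeletal muscle markers tested 0 passed and 0 were positive, with a median of -0.33, and the summed signal of all 18 was 22145.8 to 57542 on late arrays and 36188.1 to 73403.3 on early ones. Their part in the heat shock factor targets was not tested. Chordc1, an Hsp90-binding protein, stood at -0.35 ± 0.13 and Hspa8, the constitutive Hsp70, at -0.33 ± 0.20. The 3 tested members Fkbp4 (92808_f_at, -0.26), Stip1 (-0.28) and Hsp90aa1 (0.02) had values on both sides of 0. With the antisense control level as covariate Stip1 turned to 0.011 and Hsp90aa1 to -0.21, while Fkbp4 92808_f_at kept its sign. The 10 heat shock factor targets were not summarised with that covariate.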

How the data were processed

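RNA of retroperitoneal fat was hybridised to 16 single-colour Affymetrix arrays. Each deposited value is a linear signal intensity of a probe set, and the submitters' processing notes name MAS5, with no version in the sources used here. After 2% of values were trimmed from either end, the deposited arrays shared a mean of 500, which makes a level relative to its whole array. Of 12488 probe sets, 66 controls were left out. Gene names came from the platform annotation, with locations from RefSeq.

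Signals were fitted as log2(signal + 16) with limma 3.58.1 in R 4.3.3, for the 7453 probe sets with a mean at or above the 40th percentile. Every fold change is therefore on the log2(signal + 16) scale, which understates the change of dim genes. Sex and time (vehicle and 6 DHT times) were additive factors, which left 8 residual degrees of freedom, and 7 with a sex by DHT term. The trend option was used. The Benjamini-Hochberg adjustment of two-sided p-values covered all tested probe sets, with a threshold of 0.05. The 5 comparisons of neighbouring times were added after seeing the data. The fit was tried on simulated data with known changes and normal noise. The spread of that noise was taken without male vehicle replicate 2, so an array of that kind was not covered.

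Members, gene lists and the left-out array were chosen with earlier results of these data known. All member probe sets were named. From each other list the text names genes that passed and up to 4 with the largest change over all DHT times. The 6 probe sets most like Fkbp5 were named by correlation. For late against early arrays, Chordc1 and Hspa8 were chosen after their values were seen. The labels give a vehicle time of 24 h without saying what it counts. Repeated vehicle arrays of a sex supply only 2 of the 8 residual degrees of freedom. The others measure how the difference between the sexes varies over vehicle and the DHT times. Nothing says that arrays of a group came from separate animals, so the vehicle part of the spread behind a p-value may be technical. The number of arrays limits the precision.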

Additional observations from a re-analysis of the deposited data

Results flagged for a closer look

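On male vehicle replicate 2, which carried the skeletal muscle transcripts described above, 2 members stood far from the rest of their group. The gap between this array and the nearest one, as a share of the whole range, was 0.675 for Stip1 (100081_at) among the 8 male arrays. For Nr3c1 (98818_at) it was 0.929 among the 4 vehicle arrays and 0.699 among the 8 male arrays. Over 35 groups of arrays examined these were the 3 that passed Dixon's critical value. Of the 3, 2 were the same Nr3c1 signal in overlapping groups. Chance alone gives about 1 in 20 for separate groups of like arrays. The groups here share arrays, and the male group mixes vehicle with all DHT times, so that rate does not apply directly.

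For Fkbp4 92809_r_at the DHT response was higher in females than in males by log2 0.89, with all 6 female DHT arrays above the female vehicle mean and all 6 male ones below the male vehicle mean. The test of that difference gave an adjusted p of 0.611 in limma. Without male vehicle replicate 2 the difference was 0.49 ± 0.44. That array (1416) sets the male vehicle mean. The male DHT signals at 3 h (812) and 12 h (1004) were above the other male vehicle array (799.7). For 92808_f_at the female minus male response was log2 0.12 ± 0.24 with 16 arrays.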

How the results depend on the processing

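The Fkbp5 rise over all DHT times (log2 1.38) passed under 8 other settings and in 5 of 16 fits that left out 1 array. It did not pass with a mean for each sex and time or with DHT as 1 group, which called 0 probe sets each, the value remaining 1.376. A mean for each sex and time leaves 2 residual degrees of freedom and also called 0 probe sets at 3 h, 6 h and 12 h, with Fkbp5 at 1.991 and 2.17 at the last 2. The test over all times called 3 probe sets with the 60th percentile filter, pseudocount 64 or 1 probe set per gene, and the adjusted p of Fkbp5 was then 0.0429, 0.0406 and 0.0369. With the antisense control level as covariate Fkbp5 at 1 h turned to -0.11, and late against early turned to -0.21 for Hsp90aa1 and 0.011 for Stip1. Female against male called 10 probe sets with a mean for each sex and time, where Hsp90aa1 turned to -0.047, and 750 with DHT as 1 group. DHT in males called 0 with pseudocount 64, no trend, a mean for each sex and time or the covariate, and 1 with 1 probe set per gene or DHT as 1 group. The causes were not tested.

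Leaving out each array in turn gave 1 to 4 called probe sets for DHT against vehicle, 0 to 1 at 1, 3 and 24 h, 0 to 4 at 6 h, 0 to 3 at 12 h and 0 to 2 at 18 h. It gave 0 to 5 for all times together, 0 to 2 for late against early, 259 to 1168 for female against male, 0 to 2347 for sex by DHT, 0 to 3 in females and 0 to 3090 in males. The counts of 2347 and 3090 arose without male vehicle replicate 1, where the muscle-rich array is the sole male vehicle array. There Fkbp5 passed in males (0.92, range to 1.26) and Stip1 passed for sex by DHT (0.96, range from -0.038), as did Hsp90aa1 (-2.02) and Fkbp4 92809_r_at (1.30). Fkbp5 ranged from 1.17 to 1.52 over all times, -0.057 to 0.29 at 1 h, 1.69 to 2.30 at 6 h, 1.94 to 2.40 at 12 h, 1.40 to 1.74 at 18 h and 1.31 to 2.02 in females, and its adjusted p over all times together from 0.00964 to 0.303. For DHT against vehicle Fkbp4 92809_r_at ranged from -0.33 to 0.092 and Stip1 from -0.34 to 0.037. For late against early the range was -0.083 to 0.31 for Fkbp4 92809_r_at and -0.18 to 0.23 for Hsp90aa1. For female against male it was -0.12 to 0.16 and -0.18 to 0.22. No paired analysis was possible because the labels number no replicates and the numbers used here follow accession order. Each time rests on 1 array of each sex.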
